A study of Mus musculus with 12 samples.

Results

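The neutrophil chemokine genes Cxcl5, Cxcl3, Cxcl1 and Cxcl2 and the monocyte chemokine genes Ccl2 and Ccl7 were followed through 2 windows of the mouse build mm9. The Cxcl window was chromosome 5, 91170001 to 91370000, a stretch of 200 kb, and the Ccl window was chromosome 11, 81780001 to 81900000, a stretch of 120 kb. Every region of every deposited list that overlapped a window by at least 1 bp was taken, which gave 122 of the 313566 regions in all, 93 in the Cxcl window and 29 in the Ccl window. In the Ccl window both WT lines carried broad H3K4me1, over 41.7% and 56.3% of it, and neither KO line had a single H3K4me1 region there. In the Cxcl window all 4 lines carried H3K4me1 over large parts, from 38.5% to 60.4% of it. The Cxcl window held active promoter and enhancer marks and no H3K27me3, whereas the Ccl window was covered to 90% by H3K27me3 in the line where that mark was listed.

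The libraries were ChIP-seq of 4 cell lines from mouse pancreatic cancer, grown in F12/DMEM with EGF and given no treatment: female KDM6A-WT, female KDM6A-KO, male KDM6A-WT and male KDM6A-KO. Every label, those of the WT genotype included, also describes the line as derived from a tumour null for K6A, so WT and KO follow the genotype field alone. H3K4me1 was listed in all 4 lines, KDM6A and MLL4 (antibody to KMT2D) in the female WT and KO lines, and H3K4me3, H3K27ac and H3K27me3 in the female WT line. Each group was 1 library of 1 line, so no difference below has a replicate check or a test, and line and genotype cannot be told apart within a sex. The 2 lines of a sex are called a pair here; no label says that one was made from the other.

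Chemokines of the CXC family with the ELR motif, the family of Cxcl1, Cxcl2, Cxcl3 and Cxcl5, draw neutrophils through the receptor CXCR2. Ccl2 and Ccl7 bind CCR2 and draw monocytes, and tumour cells of the pancreas are a known source of both kinds. MLL4 places H3K4me1 at enhancers, and KDM6A, a subunit of its complex, removes methyl groups from H3K27. H3K27ac marks active elements, H3K4me3 marks promoters, and H3K27me3 marks genes held silent by Polycomb.

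In the RefSeq gene table, which describes the build GRCm38, the order along chromosome 5 is Cxcl5, Ppbp, Pf4, Cxcl3, Cxcl15, Cxcl1, Cxcl2 and Mthfd2l. On chromosome 11 it is Ccl2, Ccl7 and Ccl11. Gene positions in mm9 were not used here, so regions are given by position and no region is assigned to a single gene. The low-coordinate end of the Cxcl window is called the Cxcl5 end and the other the Cxcl2 end, from this order.

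Promoter sequence is shown because H3K4me3 was listed in the Cxcl window and because the 3 genes with a sequence at hand share a motif. The RefSeq promoter table (GRCm38) held Cxcl3, Cxcl1 and Cxcl2. Cxcl5, Ccl2 and Ccl7 were not in it, so their promoters were not examined. The 250 bases before each start are printed 5′ to 3′ on the plus strand, which is the gene's own strand. Capitals mark GGGAATTTCCC, a word of 11 bases that fits the kappaB pattern GGGNNNNNCC on both strands.
Cxcl3: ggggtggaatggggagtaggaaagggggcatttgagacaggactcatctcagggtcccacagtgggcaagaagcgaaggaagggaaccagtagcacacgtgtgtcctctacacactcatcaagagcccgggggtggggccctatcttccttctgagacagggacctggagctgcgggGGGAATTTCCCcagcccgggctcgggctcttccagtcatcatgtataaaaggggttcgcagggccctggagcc
Cxcl1: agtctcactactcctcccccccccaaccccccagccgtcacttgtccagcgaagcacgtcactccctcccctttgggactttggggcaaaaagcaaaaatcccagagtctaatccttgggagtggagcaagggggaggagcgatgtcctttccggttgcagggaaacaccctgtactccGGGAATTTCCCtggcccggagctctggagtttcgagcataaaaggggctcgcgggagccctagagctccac
Cxcl2: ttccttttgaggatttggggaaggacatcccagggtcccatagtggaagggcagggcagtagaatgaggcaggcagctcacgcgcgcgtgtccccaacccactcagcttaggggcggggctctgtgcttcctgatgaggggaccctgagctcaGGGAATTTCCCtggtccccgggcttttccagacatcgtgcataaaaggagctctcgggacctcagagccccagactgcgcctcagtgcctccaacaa
The word began at position -73 in Cxcl3, -71 in Cxcl1 and -97 in Cxcl2, counted from the start. On either strand it occurred in 14 of the 32851 promoter stretches of this length in the table, or 0.0426%, these 3 included. The word was picked because these 3 share it, so its rarity is not a test. The wider pattern GGGNNNNNCC was common, in 45.8% of them, and TATAAA stood in 12.4% and among the 3 only in Cxcl3. The AP-1 words TGACTCA and TGAGTCA, each the other's reverse complement, occurred in 4.46% of all and in none of these 3 stretches. A match is a description of the letters.

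In the female WT line the Cxcl window was rich in promoter marks. H3K4me3 was listed in 9 regions of 3 to 5.6 kb, all overlapped by H3K27ac and by H3K4me1 of each of the 4 lines. The share of all H3K4me3 regions overlapped in this way is not given here. Reads are the whole number deposited with each region, taken as the reads in it, and ranks are within one list. The leading H3K4me3 region lay near the Cxcl2 end at 91359201 to 91362800 with 1579 reads, rank 3542 of 24492. Mthfd2l follows Cxcl2 in the gene order, and which gene this region belongs to was not analysed here. Next came 91186401 to 91192000 near the Cxcl5 end with 1550 reads, the longest of the 9, and 91319001 to 91323000 with 1297 reads. These 3 stood apart from the other 6, which held 180 to 438 reads. The median H3K4me3 region of the whole list had 319.5 reads.

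H3K27ac in the Cxcl window was listed in 11 regions covering 72.2 kb, 8.22 times the coverage of the listed span of all chromosomes. Of these 11, 6 touched H3K4me3 and are described as promoter-like in part, while 5 lay wholly off it and are described as enhancer-like. By length, 31.4 of the 72.2 kb lay on H3K4me3. The 3 regions with the most reads lay on it over 52.2%, 44.6% and 56.7% of their length, so they also held enhancer-like stretches. The region with the most reads was 91302601 to 91316000, with 1477 reads over 13.4 kb and rank 401 of 29284. It lay between the Cxcl5 and Cxcl2 ends, held 2 weaker H3K4me3 regions with 409 and 284 reads, and was the place of the one MLL4 region of the WT line. The longest was 91178401 to 91198600 at the Cxcl5 end, with 1370 reads over 20.2 kb. The other broad one among the leading 3 spanned 91327001 to 91339000 with 508 reads. By length, 34.0% of the H3K4me1 of female WT in the window lay on H3K27ac outside H3K4me3, 28.0% on H3K4me3, and 38.0% on neither. No H3K27me3 region reached the window, and the nearest ended 185.8 kb before it and began 396.6 kb after it.

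**Figure D1:**
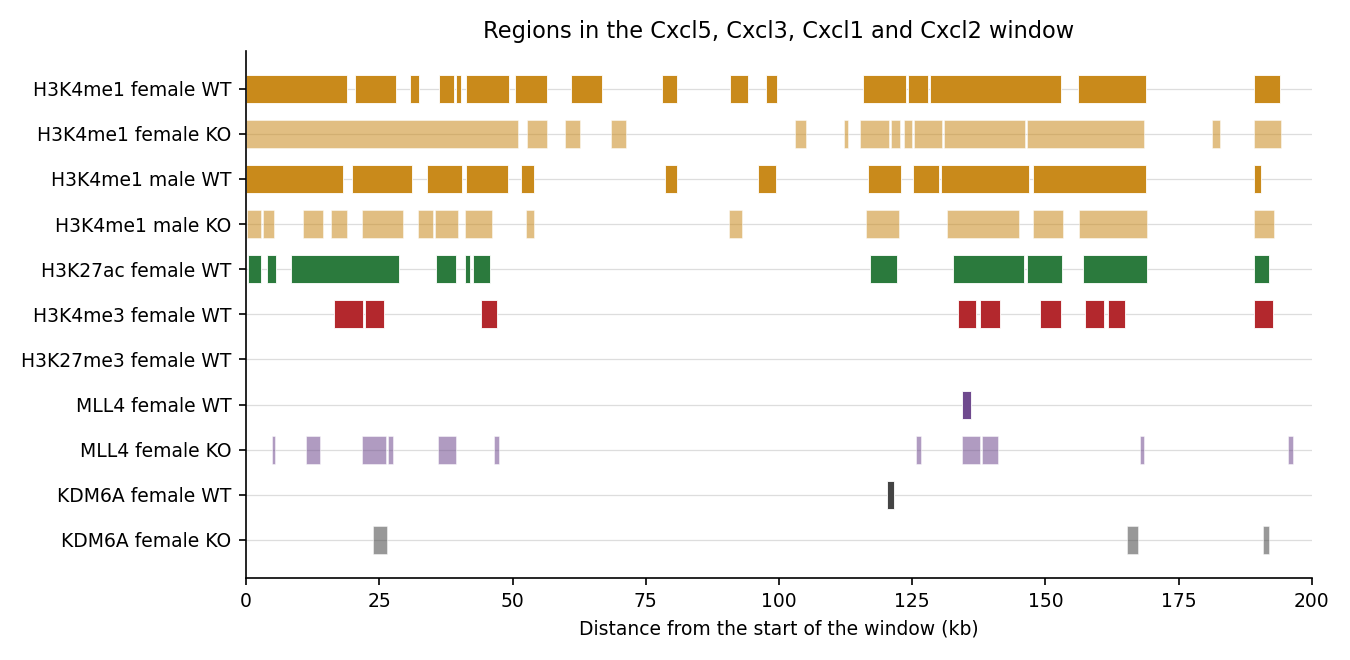
Deposited regions over the Cxcl window by list; the horizontal axis is the distance in kb from the start of the window (Cxcl5 end on the left), bars are regions cut at the window's borders, and paler bars are KO lines. H3K4me1 is present in all 4 lines, H3K27me3 is absent, and MLL4 has 11 regions in female KO against 1 in female WT.

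The Ccl window of the female WT line looked different. H3K27me3 was listed in 9 regions that covered 108 kb of the 120 kb. The leading one was 81828401 to 81872000, with 1052 reads over 43.6 kb and rank 621 of 30556. The next were 81896001 to 81917200 with 525 reads and 81810201 to 81827400 with 400 reads. Joined across gaps of up to 5 kb, 10 H3K27me3 regions made one stretch of 154 kb, rank 141 by length of 16051 such stretches. Promoter and activity marks were few in regions and low in reads, though near average in coverage. H3K4me3 covered 2.67% of the window and H3K27ac 5%, against 2.80% and 4.39% of the listed span of all chromosomes. H3K4me3 was listed at 81820001 to 81821000 with 51 reads and at 81849001 to 81851200 with 97 reads, ranks 21430 and 17367 of 24492. Both lay wholly inside H3K27me3 regions and wholly inside H3K4me1 of the 2 WT lines. H3K27ac was listed at 81819001 to 81821600 with 83 reads and at 81823401 to 81826800 with 79 reads, again inside H3K27me3. The first of these covered the first H3K4me3 region, and no H3K27ac lay over the second.

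H3K4me1 and H3K27me3 were listed over the same ground there. Of the 50 kb of H3K4me1 in female WT, 89.2% was also under H3K27me3, where the share over all H3K4me1 of that line was 5.94%. A list gives the average of many cells, so the 2 marks may lie on the same or on different copies of the locus, which was not tested. The H3K4me1 region with the most reads was 81817201 to 81841400, with 1662 reads over 24.2 kb and rank 357 of 56076. The next was 81842801 to 81855400, with 832 reads over 12.6 kb, and then 81809201 to 81813600, with 152 reads. The 5 others were 1.2 to 2 kb long and held 45 to 86 reads.

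**Figure D2:**
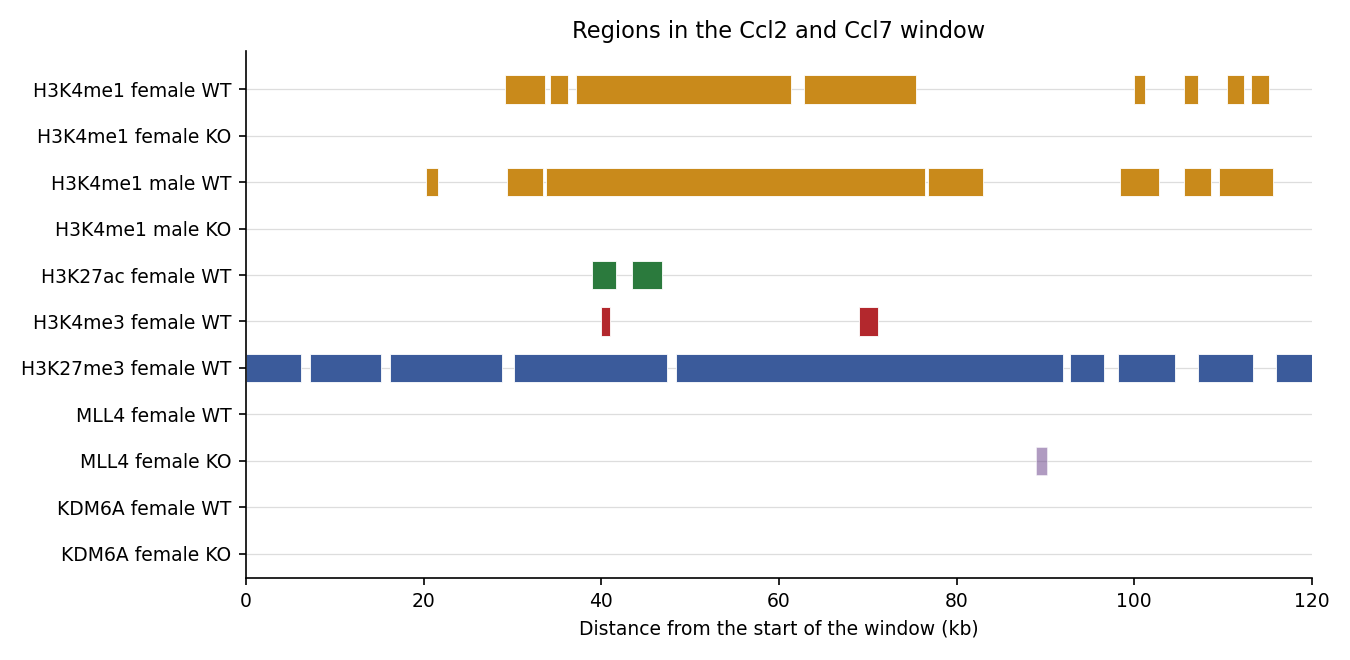
Deposited regions over the Ccl window by list, drawn as distance in kb from the start of the window, with regions cut at its borders and paler bars for KO lines. H3K4me1 fills much of the middle in both WT lines and is listed in neither KO line, while H3K27me3 of female WT runs over nearly the whole window.

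In the female pair the comparison of H3K4me1 between KO and WT at Ccl2 and Ccl7 was all or none. All 8 WT regions were without a KO region (100%, exact 95% interval 63.1 to 100, counting error only). Over the whole lists 51.1% of the female WT regions were without one, so a small region missing in KO is common. Long and read-rich ones are not: of the 482 female WT regions at least as long as the longest here, 36 or 7.47% had no KO region. Among the 357 with at least as many reads as the leading one here, 18 or 5.04% had none. For regions that overlapped H3K27me3 the share was 60.9%, and for those also at least 10 kb long it was 35.3%. The 2 long regions here belong to that last class. Without regard to H3K27me3, 18.8% of the female WT regions of 10 kb or more had no KO region. Of all female WT regions that touched H3K4me3, 13.2% had no KO region, and both regions doing so here had none.

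The male pair gave the same picture from separate lines. Male WT listed 7 H3K4me1 regions over 67.6 kb of the Ccl window, led by 81813801 to 81856400 with 3920 reads over 42.6 kb, rank 56 of 64247. After it came 81889601 to 81895600 with 349 reads over 6 kb, 81809401 to 81813400 with 338 reads over 4 kb, and 81856801 to 81863000 with 290 reads over 6.2 kb. Each of the 7 was without a male KO region (100%, interval 59.0 to 100), against 42% of all male WT regions. Of the 56 male WT regions at least as long as the leading one, 2 had no KO region, or 3.57%. Among the 56 with at least as many reads, 1 had none, or 1.79%. By class, 7.87% of male WT regions of 10 kb or more were without KO. Of those on H3K27me3 of female WT it was 56.9%, and 27% of those also of 10 kb or more. The other marks were listed in female WT only, so male regions are classed by the marks of that line. Of the Ccl regions, 6 of 8 in female WT and 6 of 7 in male WT touched neither H3K27ac nor H3K4me3, a class in which 83.4% and 69.6% of all WT regions had no KO region. The 2 WT lines placed the mark alike: 49.6 kb of the 50 kb of female WT lay inside H3K4me1 of male WT. The other 18.4 kb carried the mark in 1 line only, nearly all of it in male WT, which reached further on both sides.

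Windows of the same width tiled along the genome put this in scale. Among 6165 tiles of 120 kb with H3K4me1 over at least 10% of their length in female WT, 9.88% had none in female KO. For the male pair it was 5.08% of 7242. With H3K4me1 at least as extensive in WT as here, the shares were 3.31% of 966 tiles and 1.34% of 299. Both at once, in tiles past that minimum in both WT lines, held for 93 of 5481, or 1.7%. Tiles with H3K4me1 as extensive as here in both WT lines numbered 264, and 2 of them, 0.758%, had none in either KO. The tiles were not matched for H3K27me3, which covered 90% of the Ccl window in female WT. How rare such a loss is among tiles rich in that mark was not tested. On chromosome 11 as a whole, 56.4% of the WT length was also covered in KO in the female pair and 52.0% in the male pair, against 44.9% and 53.0% over all chromosomes. KO covered 0.671 times the length of WT over all chromosomes in the female pair and 0.759 times in the male pair. On chromosome 11 the ratios were 0.846 and 0.639, so the male KO list was short there beyond its whole-genome ratio. Signal too weak for the caller's threshold leaves no trace in a list, so 0 regions does not mean 0 H3K4me1.

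**Figure D3:**
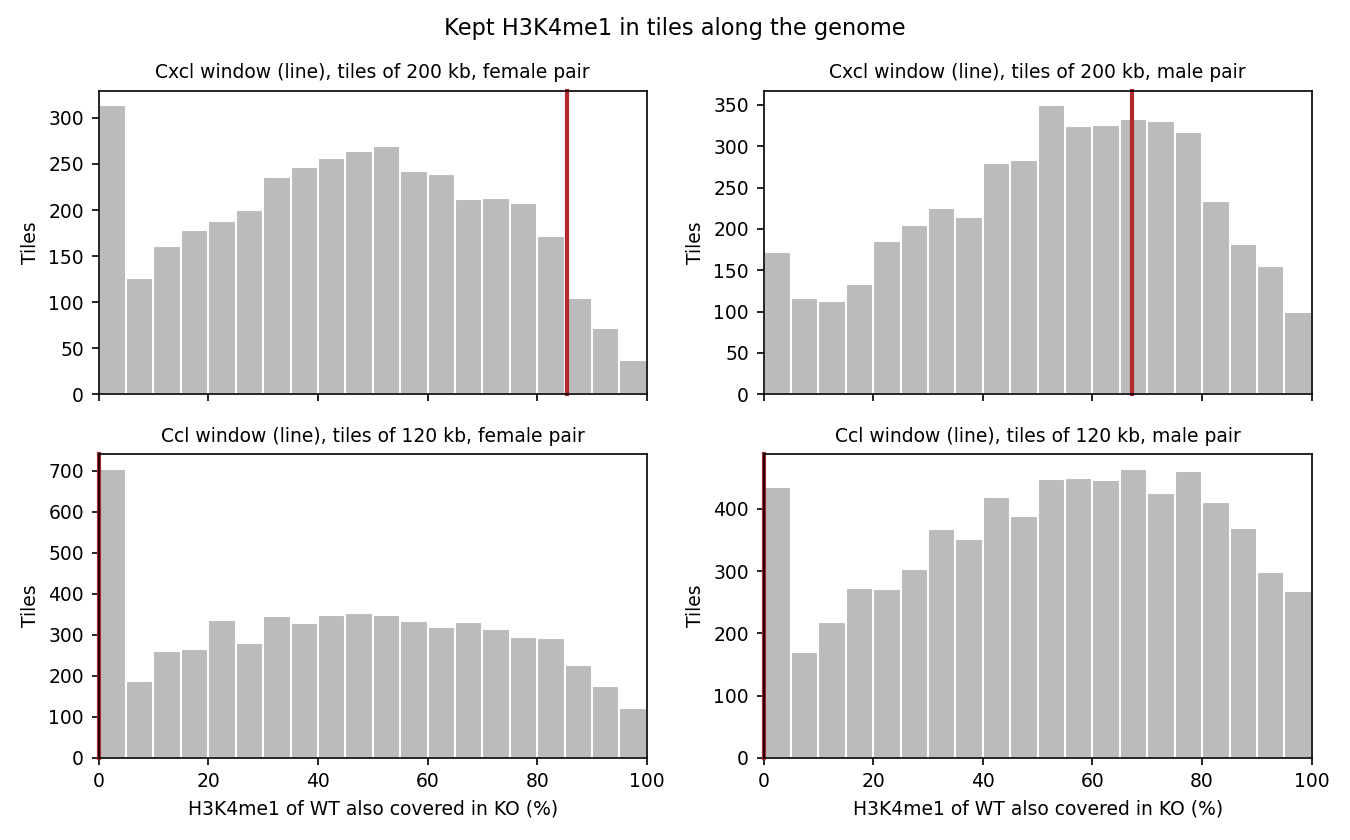
Histograms of the share (%) of WT H3K4me1 length also covered in KO, over tiles of the width of each window with H3K4me1 over at least 10% in WT; the vertical axis counts tiles and the red line is the window itself. The Ccl window sits at 0 in both pairs, and the Cxcl window at 85.5% in the female and 67.1% in the male pair.

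At the Cxcl genes the H3K4me1 of WT was largely kept in KO. In the female pair 97.6 of 114.2 kb, or 85.5%, was also covered in KO. The same share over the whole genome was 44.9%, and 55.1% of all WT steps of 200 bp were not covered in KO. On chromosome 5 the kept share was 58.5%, nearer to the window than the genome value. Among 3940 tiles of 200 kb the median kept share was 46.0%, and 95.1% of them lay at or below the window. In the male pair 68.6 of 102.2 kb, or 67.1%, was kept, against 53.0% over the genome, where 47% of the steps were not covered in KO, and 60.8% on chromosome 5. KO covered 1.01 times the length of WT on chromosome 5 in the female pair and 0.925 times in the male pair. The tile median was 55.3%, and 67.4% of the 4579 tiles lay at or below the window, so the male value was near the middle of the range.

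By regions, 3 of 16 female WT regions in the Cxcl window were without a KO region (18.8%, interval 4.05 to 45.6) and 3 of 12 male ones (25.0%, interval 5.49 to 57.2), against 51.1% and 42% over the whole lists. All 6 were under 5 kb and touched neither H3K27ac nor H3K4me3 of female WT. The window held 8 female and 4 male WT regions of that class, in which 83.4% of all female and 69.6% of all male WT regions had no KO region. In each pair 8 WT regions touched H3K27ac of female WT and 6 touched H3K4me3 of that line, and each of them overlapped a KO region. Over the lists, 17.7% of female and 8.4% of male WT regions on H3K27ac had none, and 13.2% and 4.45% of those on H3K4me3. The female ones lay at 91248001 to 91250800, 91260801 to 91264200 and 91267601 to 91269600, with 94, 118 and 77 reads, in the middle of the window between the 2 rich ends. The male ones were 91248601 to 91250800, 91266001 to 91269400 and 91295201 to 91300000, with 102, 123 and 204 reads. The first and second of these overlapped female WT regions that were also missing in female KO. In the other direction, 4 of 14 female KO regions had no WT region, where 23.4% of all female KO regions had none. They were 0.8 to 2.8 kb long with 25 to 57 reads and overlapped no other H3K4me1 list. Of the 15 male KO regions 1 had no male WT region, at 91260601 to 91263000 with 129 reads, against 25.4% of all, and it overlapped female WT.

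**Figure D4:**
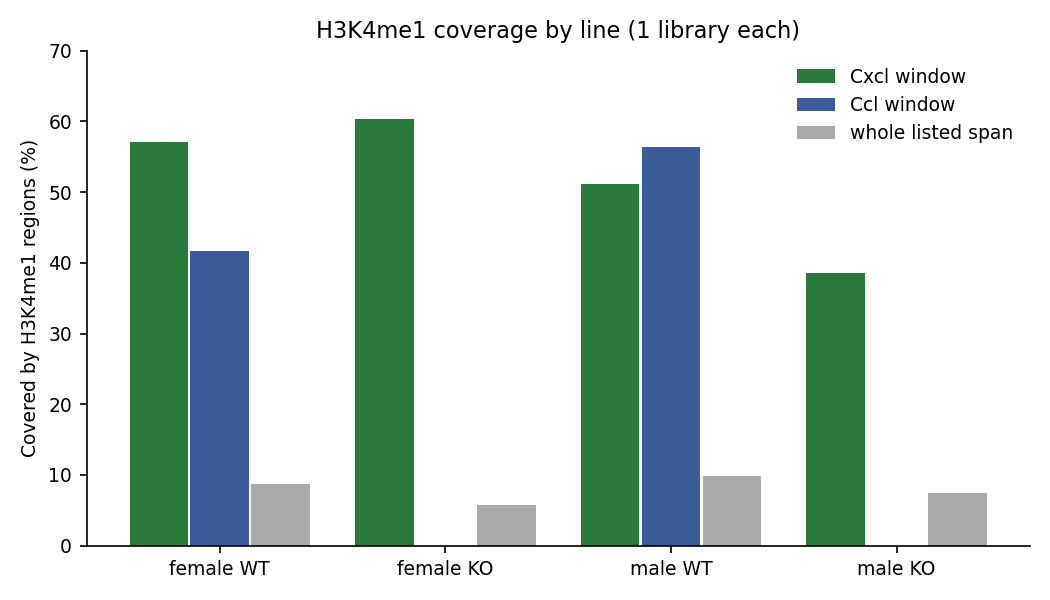
Share (%) of each window covered by H3K4me1 regions in each of the 4 lines, with the same share over the listed span of all chromosomes in grey; each bar is 1 library, without error bars. The Cxcl window stands well above grey in every line, and the Ccl window is at 0 in both KO lines.

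Within the Cxcl window the lines differed most at the Cxcl5 end. Female KO had one unbroken region there, 91154801 to 91221000, with 5313 reads over 66.2 kb and rank 3 of 35041, so few places in that list carried more. Its last 51 kb lay inside the window, and H3K4me1 of female WT covered 82.8% of its length in shorter regions. Male WT had 91127401 to 91188200, with 5129 reads over 60.8 kb and rank 22 of 64247, but only its last 18.2 kb lay inside the window, so most of its length lies before it. H3K4me1 of female WT covered 97.7% of that male WT region. Female WT had 91169801 to 91189000, with 999 reads over 19.2 kb and rank 987 of 56076, followed by shorter regions. Because female WT also covered most of both longer regions, the lengths, reads and ranks here depend on where each list splits regions. Male KO was broken into pieces, the leading one at 91191801 to 91199400 with 559 reads over 7.6 kb and rank 3417 of 49780. From 91170001 to 91241200 the mark covered 52.2 kb in female WT, 60.2 kb in female KO, 46.6 kb in male WT and 32.8 kb in male KO. The order of the lines therefore did not follow genotype.

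Toward the Cxcl2 end the lines were more alike. From 91282201 to 91339000 H3K4me1 covered 49 kb in female WT, 52 kb in female KO, 48.8 kb in male WT and 38 kb in male KO. In female WT 95.1% of that was kept in KO and in male WT 76.6%. The leading regions were 91298401 to 91323000 in female WT with 1398 reads, 91316601 to 91338600 and 91301001 to 91316200 in female KO with 1450 and 1440 reads, 91300401 to 91317000 in male WT with 1561 reads and 91301601 to 91315000 in male KO with 1518 reads. Each of these stood in the top 1% of its own list by reads. The remaining leading regions were 91326201 to 91338800 in female WT with 731 reads, 91317601 to 91338800 in male WT with 1182 reads and 91326401 to 91339000 in male KO with 744 reads. The H3K4me3 region at 91359201 to 91362800 was wholly under H3K4me1 in female WT, female KO and male KO, and to 33.3% in male WT.

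The WT H3K4me1 was also sorted by the other marks of female WT. In the Cxcl window, but not in the Ccl window, the kept share was higher on H3K4me3 or H3K27ac than off both. On H3K4me3, 100% of the female WT length in the Cxcl window was kept in KO and 90.5% of the male WT length, against 84.9% and 93.3% over the genome. On H3K27ac outside H3K4me3 the values were 98.5% and 85.9%, against 65.3% and 76.4%. Off both marks they were 63.1% and 23.6%, against 22.1% and 31.8%, so the male pair lay below the genome there and the female pair above it. In the Ccl window nothing was kept under any mark, including the 3.2 kb of female WT on H3K4me3 and the 5 kb on H3K27ac outside it. Genome-wide, 25.5% of female and 26.9% of male WT H3K4me1 on H3K27me3 was kept. On H3K27me3 without H3K4me3 or H3K27ac, where 36.4 of the 50 kb of female WT and 53.8 of the 67.6 kb of male WT in the Ccl window lay, 13.3% and 15.2% was kept genome-wide. Those marks come from the female WT line, and their state in the KO lines and in the male lines was not analysed here.

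**Figure D5:**
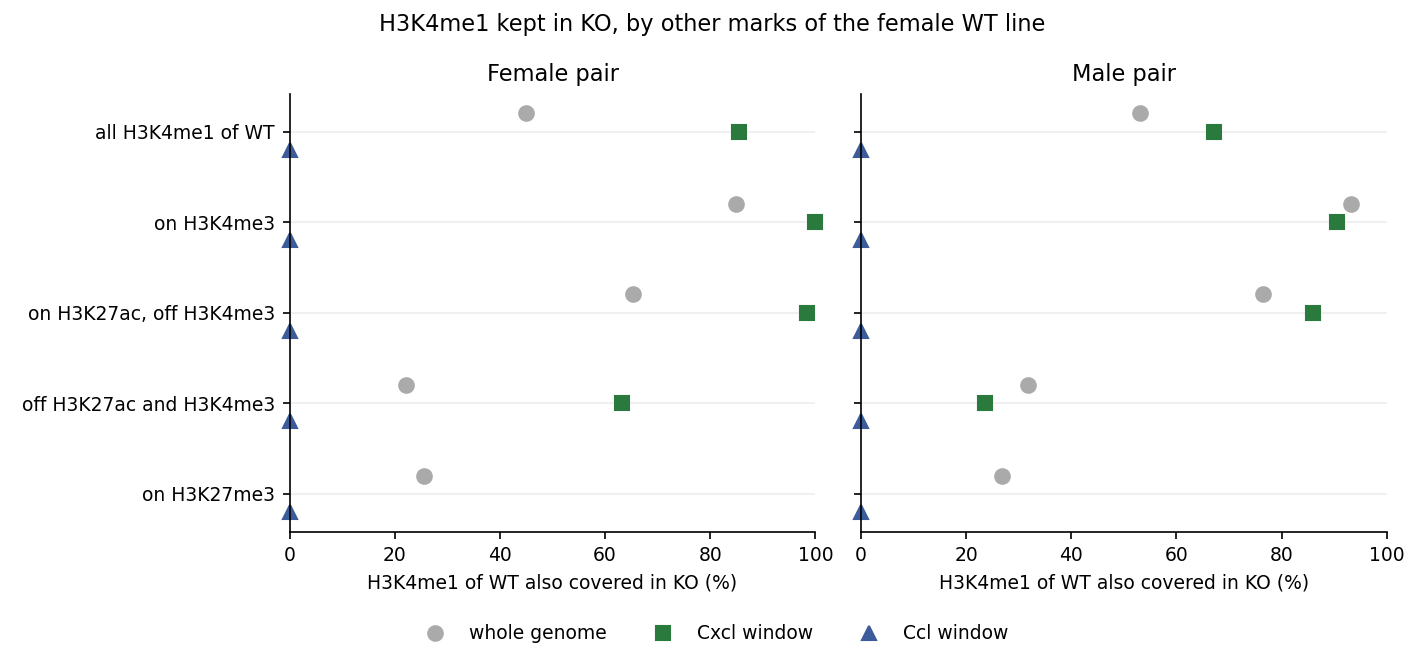
Share (%) of WT H3K4me1 length also covered in KO, for the female and the male pair, split by the marks listed in female WT; circles are all chromosomes, squares the Cxcl window and triangles the Ccl window. Squares lie at 85.9% or above on H3K4me3 and on H3K27ac in both pairs, and triangles lie at 0 throughout; no square is drawn for H3K27me3, which the Cxcl window lacks.

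Over all 4 lines, 64 of the 139.4 kb with H3K4me1 in any line of the Cxcl window, 45.9%, carried it in every line, where the share over the genome was 20.9%. In the Ccl window no step was shared by more than 2 lines, and the 49.6 kb shared by 2 were those of the WT lines.

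KDM6A and MLL4 had more regions in female KO than in female WT in the Cxcl window, as over the whole lists. The whole lists held 5961 against 2847 regions for KDM6A and 13152 against 2130 for MLL4. In the Cxcl window KDM6A had 1 region in female WT, at 91290201 to 91291600 with 42 reads, inside H3K27ac. It had 3 in female KO, at 91193801 to 91196400 with 72 reads, 91335401 to 91337400 with 49 reads and 91360801 to 91362000 with 38 reads, none overlapping the WT one. Such non-overlap is the rule in these lists: 95.6% of all KDM6A regions of KO had no WT region, and 91% of those of WT had no KO region. The KO regions come from the line whose genotype field is KO for the antibody's target, and all 3 lay on H3K27ac of WT. What the antibody bound there was not tested. MLL4 had 1 region in WT, 91304401 to 91306000 with 45 reads, inside the leading H3K27ac region. In female KO it had 11 regions over 21.6 kb, and the 1 WT region lay inside one of them. Over the lists 95.2% of MLL4 regions of KO had no WT region and 71.7% of those of WT had no KO region. The leading MLL4 regions of KO were 91191801 to 91196200 with 140 reads, rank 149 of 13152, then 91206001 to 91209400 with 138 reads and 91181201 to 91183800 with 111 reads, all at the Cxcl5 end inside the broad H3K4me1 region of that line. Of the 11, 10 overlapped H3K4me1 of female KO and 8 overlapped H3K27ac of WT. The shares of all KDM6A and MLL4 regions overlapping these marks are not given here. These overlaps are therefore not read as particular to the window. In the Ccl window KDM6A was listed in neither line, and MLL4 had 1 region, in KO, at 81869001 to 81870200 with 28 reads, rank 11232 of 13152.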

How the data were processed

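The series held 12 ChIP-seq libraries, of which 11 came with a region list; the input of female WT was not analysed here. The build mm9 and the tools SICER 1 and Bowtie 1.1.2 are named, without roles, per the submitters' processing notes. The deposited lists give 1 whole number per region, read here as a read count from its values, since no header names it; for library depth, control and threshold the entry is: not given in the sources used here. Reads inside listed regions summed to between 108165 and 17526099 per list. Counts were used only to describe and rank regions within a list. Regions lie on steps of 200 bp. Covered length, overlap of at least 1 bp and kept share (WT steps also covered in KO) came from scripts (Python 3.11.15; scipy 1.17.1; pandas 2.3.3; numpy 2.4.6) and were tested on simulated data with known answers and checked against bedtools; figures used matplotlib 3.10.9. Printed intervals are exact Clopper-Pearson at 95% over regions, which are not replicates. The counting intervals that sorted kept shares under other settings were over steps of 200 bp, which are not independent within a region. Named were all regions of H3K4me3, H3K27ac, H3K27me3, KDM6A and MLL4 where a window held 6 or fewer in a list, otherwise the 3 with the most reads; for H3K4me1, the 3 with the most reads per list, WT regions of at least 5 kb without KO and KO regions without WT. The genes, windows and lists were chosen with earlier results of these data known, and the comparisons with regions as long or as rich in reads, with tiles and with shared words were set after seeing the regions. Alternatives were a 50% overlap, regions above the median read count of their list, lists of equal number, joining within 5 kb and windows widened by 50 kb. Other chemokine genes are named only as neighbours in the gene table.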

Additional observations from a re-analysis of the deposited data

Results flagged for a closer look

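H3K4me1 coverage of the Cxcl window went opposite ways in the 2 pairs, and with 1 library per line the difference was not tested. KO minus WT was 3.3 percentage points of the window in the female pair and -12.6 in the male pair. From 91170001 to 91241200 on chromosome 5, toward the Cxcl5 end, KO minus WT was 8 kb in the female pair and -13.8 kb in the male pair. From 91282201 to 91339000, toward the Cxcl2 end, it was 3 kb and -10.8 kb. Of 3548 tiles of 200 kb with H3K4me1 over at least 10% in both WT lines, 421, or 11.9%, were likewise more covered in female KO and less in male KO, so such a split is not rare in these lists. On chromosome 5 as a whole KO covered 1.01 times the length of WT in the female pair and 0.925 times in the male pair, against 0.671 and 0.759 over all chromosomes.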

How the results depend on the processing

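Of 36 values recomputed under other settings, 24 stayed within their counting interval or within 1.5 times the count, and 12 moved beyond it. A change of direction was not among the checks. The kept share of the Ccl window was 0 under every alternative run, except 8.94% in the male pair with the window widened by 50 kb, which takes in H3K4me1 of male KO left of the window. The Ccl regions of WT without KO, 8 in female and 7 in male, became 3 of 3 in female with only regions above the median read count of their list, 4 of 4 in female with lists of equal number, 2 of 2 in female and 3 of 3 in male with neighbours merged, and 13 of 18 in male with the wider window; fewer or joined regions are counted by construction. In the Cxcl window the kept share was 81.3% in female and 62.6% in male with only regions above the median read count of their list, and in male 76.6% with neighbours merged and 58.4% with the wider window. Regions without KO there were 5 of 22 in female with the wider window and 1 of 8 in male with only regions above the median read count of their list. No paired analysis was possible because each group holds 1 library and the lines share only the number 1. Since the lists hold no total depth, no detection limit can be set for the places where H3K4me1 is not listed.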

Other observations

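The stretch without listed H3K4me1 around Ccl2 and Ccl7 in the KO lines ran past the window, mostly to the high-coordinate side. In female KO the nearest regions ended at 81746200 and began at 82576001 on chromosome 11, a gap of 829.8 kb, rank 535 of the 35021 gaps in that list. In male KO they ended at 81756400 and began at 82565001, a gap of 808.6 kb, rank 290 of 49760. Inside these gaps female WT listed 14 H3K4me1 regions over 73.6 kb and male WT 22 over 126.4 kb. Outside the window the WT lines were themselves sparse or near their average there: female WT covered 23.6 of 709.8 kb, or 3.32%, against 8.67% of the listed span of all chromosomes, and male WT 58.8 of 688.6 kb, or 8.54%, against 9.82%. The gap reached 33.8 kb before the window and 676 kb after it in female KO, and 23.6 kb and 665 kb in male KO. H3K27me3 of female WT covered 517.6 kb or 62.4% of the female gap, against 10.3% of the listed span of all chromosomes. Of that length, 108 kb lay in the Ccl window. The MLL4 list of female KO had 3 regions inside its own line's gap and the KDM6A list of female KO had none. Ccl11 follows Ccl7 in the gene order of GRCm38, and which further genes lie in the gap in mm9 was not analysed here.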
